A study of Sus scrofa with 24 samples.

Results

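The step from day 4 to day 8 of adipogenic differentiation was examined in subcutaneous adipocytes of pigs, by the small RNA libraries BF-4d (day 4) and BF-8d (day 8). These are 6 of the 24 libraries of the study, 3 for each day, and the miRNAs were the 430 of 1587 entries of the authors' table whose mean over all 24 libraries was at least 1 TPM (reads per 1000000 miRNA reads). Of the 430, 270 were known miRNAs and 160 were newly predicted ones, written novel_miR with a number. The other 1157 entries were not tested, and 49 of them had a mean of at least 1 TPM in BF-4d or BF-8d.

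The methods name 3 Yorkshire piglets aged 6 days and no other donors. Subcutaneous preadipocytes came from the back subcutaneous fat (BF) and intramuscular preadipocytes (IMF) from the longissimus dorsi muscle. Both kinds of cell received, once confluent, an induction medium with 3-isobutyl-1-methylxanthine, dexamethasone and insulin for 2 days and then a maintenance medium with insulin for 2 days. BF-4d cells were therefore at the end of that phase. Afterwards the growth medium was renewed on every other day, and the methods do not say plainly whether insulin was still added, so BF-8d may differ from BF-4d in medium as well as in time. No source says which piglet gave which library, so p-values measure the spread between these libraries, which may be technical. IMF-4d and IMF-8d, with 3 libraries each, were used to see where the subcutaneous step differed. BF and IMF libraries may share donors, which the comparison of the sources did not take into account.

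miRNAs are short RNAs that guide Argonaute proteins to matching sites in mRNAs, mostly through the seed near their 5′ end, and lower the output of those mRNAs. During adipogenesis a preadipocyte stops dividing and takes up a programme of lipid storage under PPARG and C/EBP factors, and many miRNAs have been described as promoters or brakes of that programme. Small RNA sequencing counts miRNAs as shares of one library, so a large change in one abundant miRNA moves the shares of all others.

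The mature sequences of the miRNAs described most closely are shown first, 5′ to 3′ in DNA letters as the study's miRNA table lists them. Capitals mark the seed, bases 2 to 8. The first had the highest mean of all entries on both days, the next 7 were higher on day 8 and the last 3 were lower, although the fall of ssc-miR-145-5p did not pass the test.
ssc-miR-21-5p: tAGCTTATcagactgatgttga
ssc-miR-148a-3p: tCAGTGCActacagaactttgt
ssc-miR-26b-5p: tTCAAGTAattcaggataggtt
ssc-miR-210: cTGTGCGTgtgacagcggctga
ssc-miR-218: tTGTGCTTgatctaaccatgt
ssc-miR-224: cAAGTCACtagtggttccgttta
novel_miR_994: tATGGATGtgattgcttt
novel_miR_1222: tCTACAGTggctgtggct
ssc-miR-127: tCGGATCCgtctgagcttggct
novel_miR_461: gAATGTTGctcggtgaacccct
ssc-miR-145-5p: gTCCAGTTttcccaggaatccctt
No 2 of these share a seed. A mature sequence was at hand for 336 of the 430 entries.

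The 6 libraries held between 4954845 (BF-8d replicate 3) and 12836120 (BF-8d replicate 1) reads on miRNAs, so that 3 reads, taken as the floor, were worth from 0.234 to 0.605 TPM. Floors cover counting error only. Of the clean reads, 63.3%, 59.3% and 67.2% fell on miRNAs in BF-4d and 71.7%, 48.5% and 34.3% in BF-8d, against 81.5% to 91.9% in the other 18 libraries, and the part of this loss in the results below was not tested beyond the change of scale described with them. Libraries of one day differed far beyond counting error (chi-square at least 93.5 per degree of freedom). The table holds miRNAs alone, so mRNA markers of adipocytes were not checked here. Among miRNAs that mark other cell types, the 4 epithelial ones in the table summed to 0.0898 to 0.545 TPM in the 6 libraries, with 2 of the 4 at 0 in all 6. The 4 leukocyte ones summed to 0.529 to 2.60 TPM, with 1 at 0 in all 6. The 3 red blood cell markers, of which ssc-miR-486 was tested, summed to 1.52 to 3.77 TPM, the 2 endothelial ones to 51.2 to 90.9 TPM and the 2 hepatocyte ones, with 1 at 0 in all 6, to 3.74 to 15.8 TPM. The skeletal muscle markers summed to 1043 to 1526 TPM on day 4 and 1324 to 2362 TPM on day 8, nearly all of it ssc-miR-1, whose day 4 values of 1500, 1011 and 1099 TPM overlapped those of day 8, at 1294, 1594 and 2324 TPM. None of the 7 marker entries that could be tested passed the test, but only 3.02% of all entries did, so this count is no result about them.

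Between day 4 and day 8 the leading miRNA of the subcutaneous cells lost ground and the next one gained it. ssc-miR-21-5p, a growth-associated miRNA abundant in many cultured cells, made up 51.3%, 49.0% and 55.1% of the miRNA reads on day 4 and 27.9%, 38.3% and 40.3% on day 8. All 3 day 8 libraries lay below all 3 of day 4. Its log2 fold change of -0.56 (SE 0.21) nevertheless had an adjusted p of 0.155 in limma, with an exact two-sided permutation p of 0.1, the smallest that 3 against 3 libraries allow. ssc-miR-148a-3p, a miRNA of adipose tissue described as a promoter of adipocyte differentiation, was at 147925, 143147 and 135574 TPM on day 4. On day 8 it was at 378352, 277444 and 254105 TPM, a rise of 1.07 (SE 0.21) on the log2 scale with an adjusted p of 0.0183 in limma. Per 1000000 clean reads it was 0.71 and not called (adjusted p = 0.314 in limma), and per 1000000 reads other than ssc-miR-21-5p it was 0.66 (adjusted p = 0.0467 in limma). In TPM the days again did not overlap. BF-8d replicate 1 stood out, as ssc-miR-148a-3p exceeded ssc-miR-21-5p there, with a ratio of 1.36 against 0.724 and 0.631 in the other two and 0.289, 0.292 and 0.246 on day 4. Together both miRNAs took 66.0%, 63.3% and 68.6% of the reads on day 4 and 65.8%, 66.0% and 65.7% on day 8.

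**Figure D1:**
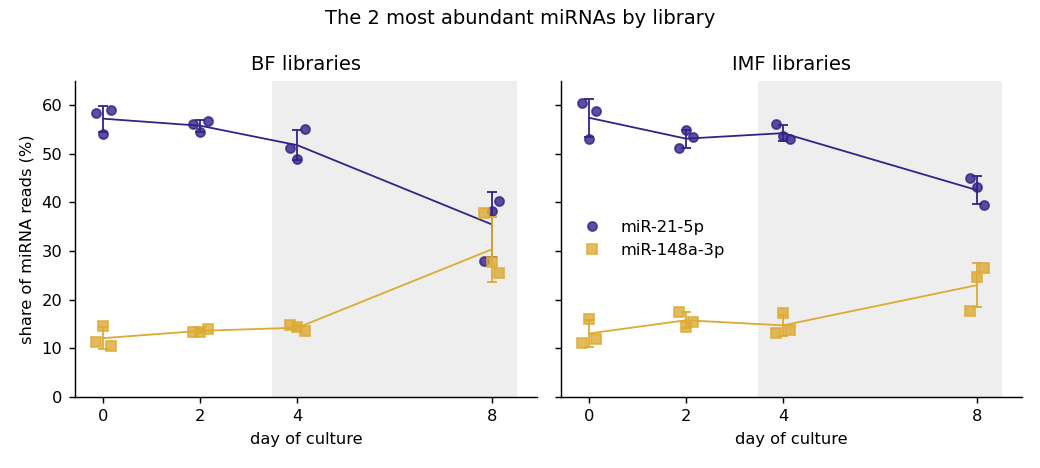
Share of the miRNA reads of each library (%, vertical axis) taken by miR-21-5p (circles) and miR-148a-3p (squares) against the day of culture, for BF on the left and IMF on the right. Points are libraries, lines join group means, bars are SD (n = 3), and the shaded span is day 4 to day 8. In BF the mean share of miR-21-5p went from 51.8% to 35.5%, and in 1 library of day 8 the square lies above the circle.

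In intramuscular cells the same ratio of ssc-miR-148a-3p to ssc-miR-21-5p was 0.271 ± 0.0447 (SD, n = 3) on day 4 and 0.546 ± 0.140 (SD, n = 3) on day 8, and the difference between the sources in the change of ssc-miR-148a-3p did not pass the test (adjusted p = 0.308 in limma). In BF the ratio had been 0.212 ± 0.0498 (SD, n = 3) on day 0 and 0.243 ± 0.00568 (SD, n = 3) on day 2. The 10 most abundant entries as a set took 87.5% ± 0.260 (SD, n = 3) of reads on day 4 and 86.7% ± 0.935 (SD, n = 3) on day 8, a difference within the spread of the libraries (exact two-sided permutation p = 0.4). None of those 10 other than ssc-miR-148a-3p was a DE-miRNA. ssc-miR-100 fell short of the test although its day 4 values of 24698, 23510 and 17850 TPM all lay above those of day 8, at 14717, 15579 and 14432 TPM (adjusted p = 0.149 in limma). ssc-miR-151-3p was at 12931, 15911 and 14963 TPM on day 4 and at 35584, 22463 and 19120 TPM on day 8 (adjusted p = 0.120 in limma). The days did not overlap for either. ssc-miR-143-3p, ssc-let-7i-5p, ssc-miR-10b, ssc-miR-10a-5p, ssc-miR-199b-5p and ssc-miR-30d overlapped between the days.

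Over all 430 entries, 13 were DE-miRNAs (3.02%), which here means an FDR under 0.05 in limma and a fold change above 1.5 on the log2(TPM + 1) scale. Of these, 10 were higher on day 8 (2.33%) and 3 were lower (0.698%), and 8 were known and 5 newly predicted. Many more entries separated the days without reaching the threshold. In 54 entries (12.6%) all 3 day 8 libraries lay above all 3 of day 4, and in 60 (14.0%) all lay below. Of the 54, 5 reached the mean of 1 TPM only through BF-8d, the group where they were high, and of the 60 none depended on BF-4d in this way. At an unadjusted p under 0.05 there were 99 entries, 44 higher and 55 lower. The 13 calls depended on which library was left out. Without BF-4d replicate 2 or without BF-8d replicate 2 there was no call, with 72 entries at an unadjusted p under 0.05 each time, and without BF-8d replicate 3 there was 1. All 13 kept their direction there, with adjusted p between 0.0131 and 0.123 over these 3 fits, while without BF-4d replicate 1, BF-4d replicate 3 or BF-8d replicate 1 the counts were 30, 24 and 17 and included all 13.

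**Figure D2:**
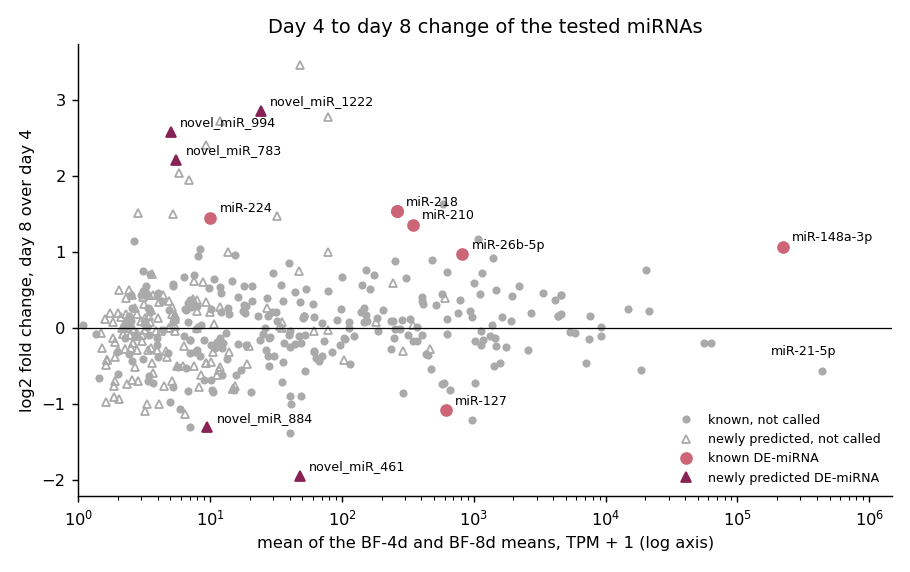
Log2 fold change of day 8 over day 4 in BF (vertical axis) against the mean of both group means (TPM + 1, log axis) for the 430 tested entries, with known miRNAs as circles and newly predicted ones as triangles. Filled coloured symbols are the 13 DE-miRNAs, 10 above 0 and 3 below, and the 3 entries of miR-218 lie on each other.

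The known miRNAs that rose were ssc-miR-148a-3p, ssc-miR-26b-5p, ssc-miR-210, ssc-miR-224 and ssc-miR-218, the last listed 3 times. ssc-miR-26b-5p, described as a promoter of preadipocyte differentiation, lies in an intron of the phosphatase gene CTDSP1 (Sscrofa11.1, chr15:120453420-120453441, plus strand). It was at 554, 578 and 523 TPM on day 4 and at 1098, 1113 and 1053 TPM on day 8, a log2 fold change of 0.98 (SE 0.19) with an adjusted p of 0.0183 in limma. Both days were tight and did not overlap. ssc-miR-26a, which lies in an intron of CTDSP2 and was added after its values were seen, was at 4639, 4446 and 3840 TPM on day 4 and 4518, 5203 and 4991 TPM on day 8, with an adjusted p of 0.628 in limma.

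ssc-miR-210 (chr2:335278-335299, minus strand), a miRNA best known as a target of hypoxia-inducible factor and also described as a promoter of adipogenesis, was at 140, 192 and 256 TPM on day 4. It reached 392, 502.8 and 598 TPM on day 8, a log2 fold change of 1.36 (SE 0.27) and an adjusted p of 0.0183 in limma. It had also been a DE-miRNA in BF-2d vs. BF-4d, a comparison that shares the day 4 libraries, with a log2 fold change of 1.64, and its mean was 17.8 TPM on day 0 and 62.8 TPM on day 2. ssc-miR-224, described as a brake on early adipocyte differentiation, lies in an intron of the GABA receptor gene GABRE (chrX:123283478-123283500, minus strand). It went from 3.28, 4.55 and 4.76 TPM to 7.87, 15.5 and 18.4 TPM. This was a log2 fold change of 1.46 (SE 0.32), with an adjusted p of 0.0360 in limma. The lowest library of day 8 was still above the highest of day 4 for both miRNAs. ssc-miR-452, in an intron of GABRE as well, was at 4.92, 13.5 and 9.96 TPM on day 4 and at 10.8, 20.5 and 26.6 TPM on day 8. Its days overlapped and it was not called (adjusted p = 0.181 in limma).

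ssc-miR-218, a miRNA with binding sites in Wnt pathway mRNAs and in SLIT receptor mRNAs, has exact copies in introns of SLIT3 (chr16:55115936-55115956, plus strand) and SLIT2 (chr8:15047612-15047632, plus strand), and its reads cannot be assigned to either. The entries ssc-miR-218, ssc-miR-218-5p and ssc-miR-218b hold nearly the same reads and count as 1 miRNA. It was at 84.4, 125 and 210 TPM on day 4 and at 381, 382 and 379 TPM on day 8. The log2 fold change was 1.54 (SE 0.30) with an adjusted p of 0.0183 in limma. The day 8 libraries were close to each other, while those of day 4 were spread.

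**Figure D3:**
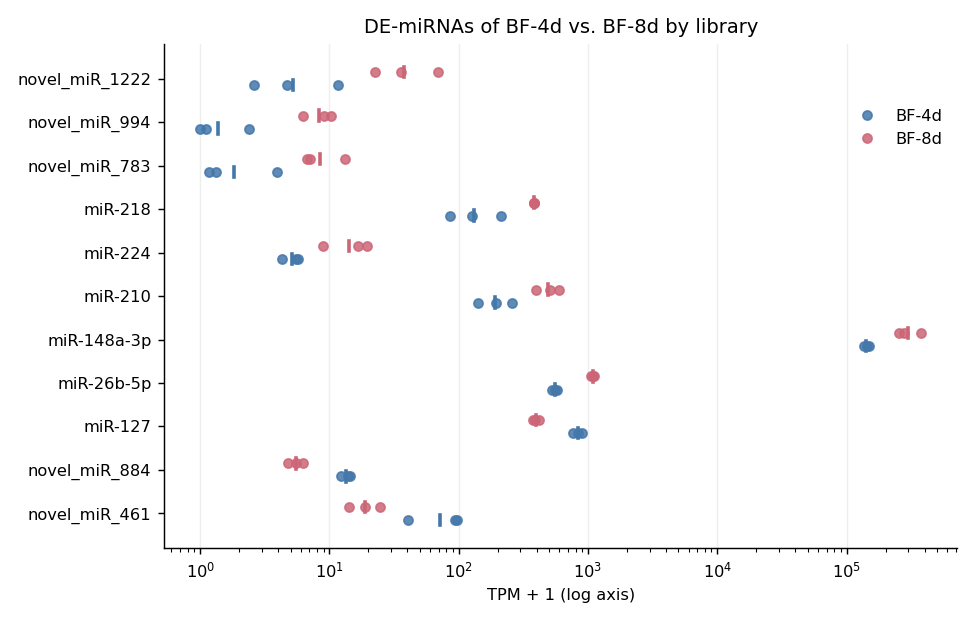
TPM + 1 (log axis) of the DE-miRNAs in each library of BF-4d (blue) and BF-8d (red), with 1 row for the 3 entries of miR-218. Points are libraries and ticks are means on the log scale. In no row do the days overlap.

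Of the 3 DE-miRNAs that fell, ssc-miR-127 belongs to the imprinted DLK1-DIO3 region, which expresses its miRNAs from the maternal chromosome, and novel_miR_461 lies on a scaffold with other miRNAs of that region. ssc-miR-127 (chr7:121709688-121709709, plus strand) lies opposite an exon of RTL1, whose mRNA it cleaves in mammals. It was at 829, 896 and 766 TPM on day 4 and at 418, 386 and 374 TPM on day 8, a log2 fold change of -1.08 (SE 0.19) with an adjusted p of 0.0183 in limma. novel_miR_461 was at 93.1, 96.2 and 39.2 TPM on day 4 and 13.2, 17.7 and 23.6 TPM on day 8, which gave -1.94 (SE 0.36) and an adjusted p of 0.0183 in limma. novel_miR_884 was the third, at 13.5, 12.9 and 11.3 TPM on day 4 and 3.82, 4.51 and 5.25 TPM on day 8 (log2 fold change -1.30, SE 0.24, adjusted p = 0.0183 in limma). In each of the 3 the day 8 libraries were clear of those of day 4.

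The wider set of the region moved the same way, mostly below the threshold for single miRNAs. Of 54 listed miRNAs of the DLK1-DIO3 locus, 13 were tested, and all 13 had a log2 fold change below 0, with a median of -0.82 against 0.01 over all 430. In 11 of the 13 the day 8 libraries lay wholly below those of day 4, beside 14.0% of all entries. Of the 13, 1 was a DE-miRNA with a fall, ssc-miR-127, beside 0.698% of all entries. The listed members together summed to 9859, 9202 and 8576 TPM on day 4 and to 7216, 6633 and 5634 TPM on day 8. Most of that sum was ssc-miR-381-3p, named after its values were seen, at 8787, 8124 and 7647 TPM on day 4 and 6714, 6139 and 5164 TPM on day 8. It had a small fold (-0.45, SE 0.19, adjusted p = 0.192 in limma), with no overlap of the days. ssc-miR-758 went from 64.6, 61.5 and 61.6 TPM to 30.1, 40.2 and 30.3 TPM, with an adjusted p of 0.0620 in limma. ssc-miR-382 went from 10.3, 5.82 and 10.7 TPM to 3.35, 4.84 and 1.41 TPM (adjusted p = 0.0771 in limma), and ssc-miR-411 from 7.38, 7.51 and 5.83 TPM to 2.03, 1.93 and 5.05 TPM (adjusted p = 0.0988 in limma). ssc-miR-370 (chr7:121736941-121736962) had uneven day 4 libraries, at 99.8, 48.3 and 26.3 TPM, and was at 10.2, 26.0 and 25.0 TPM on day 8. None of these passed the test, though none overlapped.

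The mature sequences of 15 entries matched 1 unplaced scaffold of Sscrofa11.1 within bases 30049 to 70551 of the plus strand, in a chain with gaps of at most 10 kb. The 15 are 6 known miRNAs of the DLK1-DIO3 list, among them the 3 shown here for their place in the chain, and 9 newly predicted ones.
ssc-miR-411: aTGTAACAcggtccactaac
ssc-miR-758: tTTGTGACctggtccactaac
ssc-miR-382: aAGTTGTTcgtggtggattcg
All 15 had log2 fold changes below 0 in BF, from -1.94 to -0.00, with a median of -0.96, and in 10 the day 8 libraries lay below those of day 4 with no overlap, beside 14.0% of all entries. novel_miR_461, at bases 68943 to 68964, was the 1 DE-miRNA among them, with a fall, beside 0.698% of all entries. novel_miR_716 went from 9.60, 8.36 and 5.30 TPM to 2.49, 4.35 and 2.22 TPM and was not called (adjusted p = 0.0721 in limma). The other chains with at least 5 sequences were centred nearer to 0. The chain with ssc-miR-17-5p on chromosome 11 had a median of 0.00, and that with ssc-miR-532-5p on chromosome X -0.20.

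**Figure D4:**
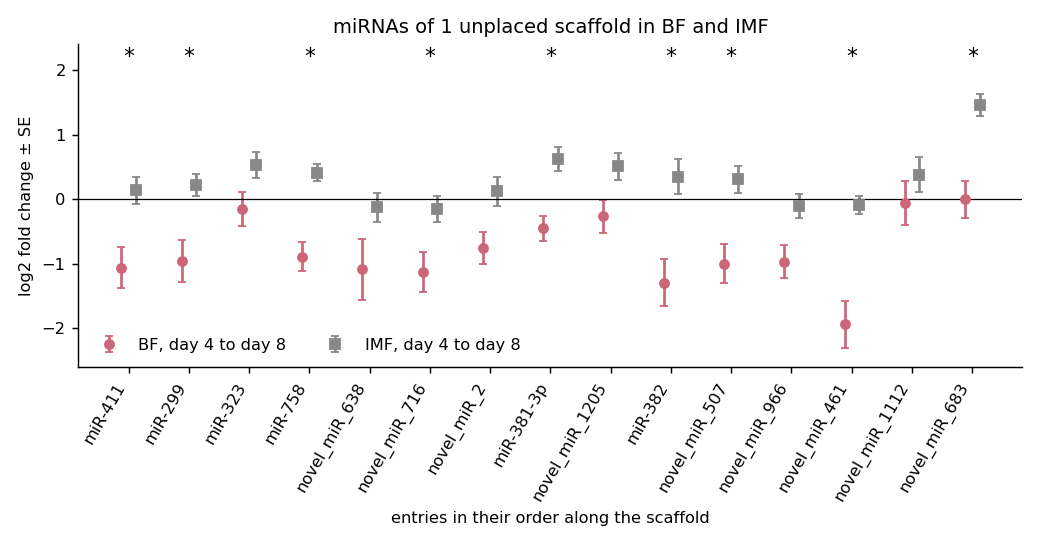
Log2 fold change of day 8 over day 4 with its SE (vertical axis) for 15 entries in their order along 1 unplaced scaffold, in BF (red circles) and IMF (grey squares). An asterisk marks the 9 entries whose change differed between BF and IMF (limma, FDR under 0.05). The BF values lie at or below 0, and 11 of the 15 IMF values lie above 0.

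The newly predicted DE-miRNAs that rose were novel_miR_994, novel_miR_1222 and novel_miR_783, and all were scarce. novel_miR_994 and novel_miR_783 were tested only because of BF-8d, since their means over the other 21 libraries were 0.0720 and 0.196 TPM, under the limit of 1 TPM. Their calls are therefore given as a description and not as support for a rise among newly predicted miRNAs. With no filter on low values the adjusted p in limma was 0.182 for novel_miR_994, 0.304 for novel_miR_783 and 0.300 for novel_miR_1222. novel_miR_994 (chr14:104733209-104733226, plus strand, in no annotated gene) was at 1.41, 0.106 and 0.00 TPM on day 4 and at 8.10, 9.19 and 5.25 TPM on day 8 (log2 fold change 2.59, SE 0.36, adjusted p = 0.0118 in limma). Its day 4 reads numbered 12, 1 and 0, and the size of the fold depended on how such low values were treated. The log2 fold change was 4.56 with a pseudocount of 0.1, 3.97 by edgeR and 3.92 by DESeq2. novel_miR_783 went from 2.93, 0.317 and 0.180 TPM to 5.69, 12.1 and 6.05 TPM (log2 fold change 2.22, SE 0.46, adjusted p = 0.0221 in limma). That call was lost with a pseudocount of 0.1 (log2 fold change 3.42, adjusted p = 0.0507 in limma) and by edgeR (adjusted p = 0.0997), and the call of novel_miR_994 by DESeq2 (adjusted p = 0.0796). novel_miR_1222 went from 10.7, 1.59 and 3.68 TPM to 21.3, 67.6 and 34.5 TPM (log2 fold change 2.86, SE 0.54, adjusted p = 0.0183 in limma), but its 18 bases have 237 exact copies in the genome, all in soft-masked repeats. For each, BF-4d replicate 1 was the highest library of day 4.

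The same library was the highest of day 4 for 4 newly predicted entries that were not called, novel_miR_848, novel_miR_39, novel_miR_476 and novel_miR_21, and the lowest for novel_miR_531 and novel_miR_298. novel_miR_848 was at 37.5, 1.69 and 1.80 TPM on day 4 and at 49.1, 137 and 56.1 TPM on day 8 (adjusted p = 0.0620 in limma). novel_miR_39 was at 5.04, 0.423 and 0.0898 TPM on day 4 and 9.97, 6.29 and 7.27 TPM on day 8, and novel_miR_476 at 6.44, 0.423 and 0.718 TPM and 7.63, 11.9 and 8.48 TPM. In novel_miR_21, added after its values were seen, the days overlapped, with 105, 5.39 and 5.83 TPM on day 4 and 128, 125 and 90.6 TPM on day 8. Without BF-4d replicate 1 the log2 fold change of novel_miR_848 was 4.74 instead of 3.47, and novel_miR_848, novel_miR_39 and novel_miR_476 were then DE-miRNAs. novel_miR_39 and novel_miR_476 also passed the filter only through BF-8d, with means of 0.264 and 0.391 TPM over the other libraries. Of the others in the rule for large changes, novel_miR_531 was at 0.117, 0.846 and 0.180 TPM on day 4 and 1.25, 5.64 and 2.83 TPM on day 8, near the floor, and ssc-miR-935 at 0.586, 0.317 and 0.987 TPM and 1.48, 3.55 and 3.03 TPM. Neither passed the test (adjusted p = 0.0643 and 0.0677 in limma).

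Among named regulators of adipogenesis 4 were DE-miRNAs, all of them higher on day 8. Of 24 miRNAs listed as promoters of adipogenesis, 22 were tested, 10 had log2 fold changes above 0 and 12 below, and the median was -0.09 against 0.01 over all entries. The 3 that rose, beside 2.33% of all entries, were ssc-miR-148a-3p, ssc-miR-26b-5p and ssc-miR-210, and none fell, beside 0.698%. Of 22 listed as brakes, 20 were tested, 10 of them above 0 and 10 below, with a median of 0.03. ssc-miR-224 was the 1 call, a rise, beside the same 2.33%. ssc-miR-145-5p, a smooth muscle miRNA also described as a brake on adipogenesis, lies opposite an intron of IL17B (chr2:150580141-150580164, plus strand). It was at 1435, 1840 and 855 TPM on day 4 and at 472, 599 and 655 TPM on day 8, without overlap. The log2 fold change was -1.20 (SE 0.29), and the adjusted p of 0.0541 in limma missed the threshold. Its cluster partner strand ssc-miR-145-3p was at 49.1, 47.1 and 31.4 TPM on day 4 and 22.6, 23.1 and 31.1 TPM on day 8, not called either. ssc-miR-143-3p of the same cluster overlapped between the days, at 73966, 73639 and 53453 TPM and then 78541, 55421 and 44770 TPM.

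None of the remaining lists held a DE-miRNA, which is no result about them, as 3.02% of all entries were called. The 4 miRNAs of the miR-29 family, whose 3p strands target collagen mRNAs, had a median of 0.70, and 3 of the 4 entries lay wholly above on day 8, beside 12.6% of all entries. ssc-miR-29b went from 98.3, 111 and 125 TPM to 194, 180 and 196 TPM (adjusted p = 0.0677 in limma), but ssc-miR-29a-3p, the most abundant member, was at 1155, 1477 and 1483 TPM and then 1155, 1408 and 1256 TPM. Both tested members of the miR-34 family, known as p53 targets, lay above on day 8. ssc-miR-34a went from 213, 234 and 264 TPM to 321, 397 and 406 TPM (adjusted p = 0.110 in limma), and ssc-miR-34c from 3.75, 4.34 and 5.47 TPM to 8.18, 9.84 and 10.9 TPM (adjusted p = 0.0677 in limma). ssc-miR-378, of an intron of PPARGC1B in mammals, went from 777, 897 and 720 TPM to 1480, 1153 and 1012 TPM without overlap (adjusted p = 0.149 in limma).

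Among 11 tested regulators of thermogenic fat the median was 0.41, and ssc-miR-365-5p, ssc-miR-455-3p and ssc-miR-34a lay wholly above on day 8, beside 12.6% of all entries. ssc-miR-182 of this list had the largest log2 fold change (1.18) and wide spreads, with 209, 424 and 1911 TPM on day 4 and 1394, 885 and 1590 TPM on day 8. Its log2 fold change was 0.48 without BF-4d replicate 1 and 2.07 without BF-4d replicate 3, where it was called (adjusted p = 0.00348 in limma). The 12 tested members of the miR-17-92 cluster and its paralogs, which serve proliferation, had a median of -0.15 and no member without overlap. The 15 of the miR-15/16 family and the cluster of miR-424 and miR-503 had a median of 0.15, with 1 member wholly above on day 8, and the 6 of the miR-199 and miR-214 cluster a median of 0.10. By seed, the 3 tested miRNAs with CAGTGCA (ssc-miR-148a-3p, ssc-miR-148b-3p and ssc-miR-152) were all above 0, yet ssc-miR-152 was at 2839, 2148 and 2660 TPM and then 2783, 3248 and 2707 TPM, so its days overlapped. The 5 with the miR-30 seed GTAAACA had a median of -0.17 and the 8 with the let-7 seed GAGGTAG one of -0.10.

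The directions of small changes depended on the scale. The TPM scale divides by all miRNA reads, of which ssc-miR-21-5p was the largest part. The scale per clean reads also takes in the share of clean reads on miRNAs. That share had a mean of 63.3% in BF-4d and 51.5% in BF-8d. Reads per 1000000 clean reads moved the median log2 fold change of all entries by -0.25, and reads per 1000000 other than ssc-miR-21-5p by -0.35. On these scales 17 and 44 entries were called, of which 8 and 4 were higher, and 6 and 7 of the 13 were among them. With median-of-ratios scaling, 16 were called, of which 10 were higher, and they included all 13. The 3 falls and novel_miR_994, novel_miR_1222 and novel_miR_783 were called on both, and ssc-miR-148a-3p on the second. ssc-miR-26b-5p, ssc-miR-210, ssc-miR-218 and ssc-miR-224 kept positive log2 fold changes, between 0.62 and 1.18 per 1000000 clean reads, but were not called on either. The medians of the DLK1-DIO3 list were -1.02 and -1.26, against -0.24 and -0.34 over all entries. Those of the miR-29 family were 0.36 and 0.36, while those of the thermogenic list came down to 0.05 and -0.00. By seed, the median of the miRNAs with CAGTGCA came down from 0.38 to 0.02 and -0.04. The miRNAs with GTAAACA had medians of -0.53 and -0.59, and those with GAGGTAG had -0.46 and -0.52. In bulk RNA of a culture, fewer cells of one kind and less RNA per cell cannot be told apart.

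The last comparison asked which miRNAs took a different course between day 4 and day 8 in subcutaneous and intramuscular cells. For 53 of the 430 entries (12.3%) the difference of both changes passed an FDR of 0.05 in one limma fit of all 24 libraries, and in 44 of them the subcutaneous change was the lower. Whether any of these 44 reached the mean of 1 TPM only through IMF-8d was not checked, so their count is a description. Of the 13 listed DLK1-DIO3 miRNAs, 9 were among the 53. ssc-miR-127 was at 1348, 1296 and 1811 TPM in IMF-4d and at 2018, 2204 and 2011 TPM in IMF-8d, where every library was above those of day 4, against the fall in BF. The difference of the log2 fold changes, BF minus IMF, was -1.58 with an adjusted p of 0.000986 in limma. In IMF 12 of the 13 listed miRNAs had log2 fold changes above 0, with a median of 0.50, and the listed members summed to between 19082 and 23481 TPM on day 4 and between 27350 and 35732 TPM on day 8. On the scaffold, 9 of the 15 entries were called, and 11 of 15 were above 0 in IMF, beside 282 of all 430.

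All 5 tested miRNAs of the inflammation list were DE-miRNAs with a rise in IMF, where 53 of all 430 entries (12.3%) were, and none was a DE-miRNA in BF between these days. In BF, 3 of the 5 had been DE-miRNAs with a rise one step earlier, in BF-2d vs. BF-4d, beside 25 of all 430 entries (5.81%). These were ssc-miR-146b, ssc-miR-132 and ssc-miR-212, with log2 fold changes of 2.79, 1.09 and 1.87 there, and the list had a median of 1.79 in that step, against 0.13 over all entries. Both steps in BF share the day 4 libraries. ssc-miR-146a-5p, induced by NF-kB and a brake on that pathway, was at 188, 172 and 820 TPM in BF-4d and 466, 576 and 645 TPM in BF-8d, with overlap. In IMF it was at 39.8, 34.4 and 39.8 TPM on day 4 and 985, 682 and 557 TPM on day 8, and the difference of the log2 fold changes was -3.32. Its relative ssc-miR-146b differed by -1.36, and 4 of the 5 tested miRNAs of that list differed between the sources, beside 53 of all 430 entries (12.3%) for this difference, ssc-miR-155-5p being the exception (adjusted p = 0.615 in limma). ssc-miR-132 and ssc-miR-212, neighbours that CREB induces, did not separate the days in BF. ssc-miR-132 was at 77.2, 137 and 116 TPM in BF-4d and at 116, 95.9 and 83.2 TPM in BF-8d, and ssc-miR-212 at 18.9, 35.8 and 43.0 TPM and then 23.5, 16.9 and 24.8 TPM. Both overlapped between the days in BF and had log2 fold changes of 1.29 and 1.11 in IMF. ssc-miR-30c-5p, listed as a promoter of adipogenesis, was at 193, 541 and 414 TPM in BF-4d and 190, 179 and 219 TPM in BF-8d, with a BF minus IMF difference of -1.52. ssc-miR-486, the red blood cell marker, was at 1.29, 1.80 and 1.44 TPM in BF-4d and 2.88, 1.77 and 2.62 TPM in BF-8d, and its sum with the other two of that list in IMF was 0.284 to 0.772 TPM on day 4 and 6.48 to 7.01 TPM on day 8.

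In the other direction, the subcutaneous change was the higher in 9 entries, all newly predicted. Of these, 6 reached the mean of 1 TPM only through BF-8d, so a higher change in BF follows from how they came to be tested, and another, novel_miR_848, only through BF-4d and BF-8d together. The count and differences of these 7 are a description and support nothing. The other 2 were novel_miR_1222 and novel_miR_126, the latter named after its values were seen. Without BF-4d and BF-8d the mean of novel_miR_1222 was 1.003 TPM, barely above the limit of 1 TPM. That of novel_miR_126 was 6.69 TPM. The 25 bases of novel_miR_126 have 3360 exact copies in the genome, all in soft-masked repeats. novel_miR_994 was at 0 in every library of IMF-4d and IMF-8d, and novel_miR_848 reached at most 0.307 TPM there, against 49.1 to 137 TPM in BF-8d. Their BF minus IMF differences were 2.59 and 3.25. The known DE-miRNAs that rose in BF showed no call for a difference from IMF, where ssc-miR-218, ssc-miR-210, ssc-miR-224 and ssc-miR-26b-5p were DE-miRNAs too, with log2 fold changes of 1.69, 2.11, 2.41 and 0.63. A p that misses the threshold does not show that these changes were alike.

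**Figure D5:**
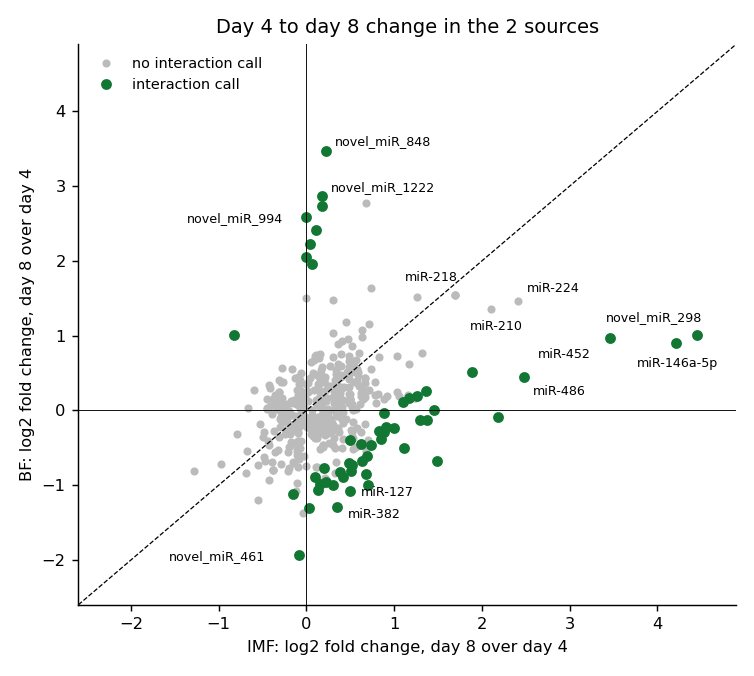
Log2 fold change of day 8 over day 4 in BF (vertical axis) against that in IMF (horizontal axis) for the 430 tested entries, with the 53 entries whose changes differed (limma, FDR under 0.05) in green and equal change on the dashed line. Of the green points 44 lie below that line and 9 above it, the latter with little change in IMF in most cases.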

How the data were processed

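The authors made 24 small RNA libraries (single-end, 50 nt). Clean reads were matched by them to Sscrofa11.1 with Bowtie, without mismatches, and other annotated small RNA classes were taken out. miRBase, through BLAST, gave the known miRNAs and miRDeep2 the predicted ones, and the authors used DESeq2 for their own tests. Per the file headers the deposited values are TPM, which here is RPM, and each column sums to 1000000. Values are whole multiples of 1 read, 100% of them within 0.01 of a whole read, so whole reads were recovered. Groups came from the titles.

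BF-4d and BF-8d were compared by limma 3.58.1 (eBayes with trend, R 4.3.3) on log2(TPM + 1), with Benjamini-Hochberg adjustment over 430 entries. A DE-miRNA had a fold change above 1.5 at an FDR under 0.05. The difference between BF and IMF was a contrast in 1 fit of all 24 libraries, with an FDR under 0.05. An exact permutation test (two-sided) was added for single values. Alternatives used edgeR 4.0.16 and DESeq2 1.42.0 on whole reads, other scales, filters and pseudocounts (0.1), a replicate block, merged entries and left-out libraries. Clean read totals and mature sequences came from the study's supplementary tables, and exact copies and annotation from the RefSeq copy of Sscrofa11.1. Fits were tested on simulated data.

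Named are all DE-miRNAs, the 5 largest rises and falls among other entries whose days do not overlap, the 10 most abundant, up to 4 members of each list (adipogenesis promoters and brakes, thermogenic regulators, inflammation, DLK1-DIO3, 7 families or clusters and 6 cell type marker sets), 4 miRNAs of the study's target table, up to 10 with the smallest interaction p, and entries with the same sequence or values. The members, lists and rules were chosen with earlier results of these data known. ssc-miR-26a, ssc-miR-148b-3p, ssc-miR-152, ssc-miR-381-3p, novel_miR_21 and the chains of neighbours were added after values were seen.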

Additional observations from a re-analysis of the deposited data

Results flagged for a closer look

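For 23 named entries, subcutaneous and intramuscular cells differed in the step to day 8 by the interaction contrast of limma, and the differences given here are log2 fold changes, BF minus IMF. The subcutaneous change was the higher for novel_miR_848 (3.25), novel_miR_1222 (2.69), novel_miR_994 (2.59), novel_miR_783 (2.19), novel_miR_39 (2.05) and novel_miR_476 (1.89). novel_miR_994, novel_miR_783, novel_miR_39 and novel_miR_476 reached the mean of 1 TPM only through BF-8d, so that their direction follows from how they came to be tested, and novel_miR_848 only through BF-4d and BF-8d together. It was the lower for novel_miR_298 (-3.44), ssc-miR-146a-5p (-3.32), ssc-miR-452 (-2.50), ssc-miR-486 (-2.04), ssc-miR-212 (-1.61), ssc-miR-30c-5p (-1.52), ssc-miR-132 (-1.42), ssc-miR-146b (-1.36) and ssc-miR-133a-3p (-1.01). Among the imprinted DLK1-DIO3 miRNAs and their scaffold neighbours it was the lower for novel_miR_461 (-1.85), ssc-miR-382 (-1.64), ssc-miR-127 (-1.58), ssc-miR-136-3p (-1.31), ssc-miR-758 (-1.30), ssc-miR-411 (-1.20) and novel_miR_716 (-0.98), and likewise for novel_miR_884 (-1.33). Whether novel_miR_298, ssc-miR-486 or others with the lower subcutaneous change reached the mean of 1 TPM only through IMF-8d was not checked. The share of clean reads on miRNAs, 34.3% to 71.7% in these 6 BF libraries and 88.3% to 91.9% in the IMF libraries of both days, moved with the source, and its part was not tested.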

How the results depend on the processing

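Against 13 DE-miRNAs, the count was 3 with no filter on low values, 81 in 1 fit of all 24 libraries (38 higher, 13 shared), 44 per 1000000 reads other than ssc-miR-21-5p (4 higher), 24 by DESeq2 (13 higher, 12 shared) and 0 to 30 without each library in turn. The percentage of higher calls was 76.9 on the deposited scale, 62.5 with median-of-ratios scaling, 47.1 per 1000000 clean reads and 9.09 without ssc-miR-21-5p. edgeR called 13, of which 12 were shared. Against 53 entries with a difference between BF and IMF, the count was 30 with a mean of at least 10 TPM, 83 per 1000000 clean reads, and 36 to 70 without each library in turn. The share of the 10 most abundant entries differed by -0.48 to -1.30 percentage points without each library in turn. Same-numbered libraries of BF-4d and BF-8d had correlations of deviations of -0.06, -0.31 and 0.16, so the numbers were not taken as pairs, and not every library correlated best with its own number. The replicate block gave 17 DE-miRNAs and 49 interaction calls.

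Of 1237 alternative values of 74 named entries, 1072 kept direction and call, 75 gained a call and 65 lost one. The direction of 25, in 9 entries that were called in none of these fits of BF-4d vs. BF-8d, turned. Per 1000000 clean reads the log2 fold changes were -0.10 (ssc-miR-199b-5p), -0.13 (ssc-miR-10b), -0.18 (ssc-miR-133a-3p), -0.28 (ssc-miR-126-3p) and -0.34 (ssc-miR-30d). Without ssc-miR-21-5p in the total the same 5 were at -0.16, -0.18, -0.24, -0.34 and -0.40. With median-of-ratios scaling ssc-miR-126-3p was at -0.012 and ssc-miR-30d at -0.064. Without each library in turn the log2 fold changes ran from -0.019 to 0.59 (ssc-miR-10b), -0.19 to 0.45 (ssc-miR-133a-3p), -0.11 to 0.32 (ssc-miR-126-3p), -0.15 to 0.21 (ssc-miR-30d), -0.27 to 0.14 (ssc-miR-499-5p), -0.39 to 0.17 (ssc-miR-10a-5p), -0.37 to 0.040 (ssc-miR-132) and -0.34 to 0.031 (ssc-let-7i-5p). The causes were not tested, other than that leaving out a library leaves 2 against 3. Entries under about 0.6 TPM in BF-8d replicate 3 are at or below 3 reads there.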
